A study of Mus musculus with 22 samples.

Results

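The sirtuins are a family of 7 mouse genes, Sirt1 to Sirt7, and their transcripts were followed here in whole spinal cord during aging and in a mouse model of amyotrophic lateral sclerosis (ALS). The members were taken by name: the rows of the deposited count table whose Ensembl identifiers carry the symbols Sirt1 to Sirt7 in the GENCODE annotation, which gave 7 of 21995 rows. All 7 passed the filter on low counts in both comparisons. RNA-seq was done on spinal cords of C57BL/6 mice, 1 library per mouse. The aging experiment had 8 young wild-type mice at 3–4 months and 8 old wild-type mice at 18–24 months, all male, with libraries made with the Roche RNA KAPA HyperPrep kit. The ALS experiment had 3 mice of the genotype G93a, called SOD1 G93A below, and 3 wild-type controls, with libraries made with the Illumina TruSeq kit. The labels give 5–6 months as the age of both of these groups, and each held 2 females and 1 male. SOD1 G93A mice carry a high-copy transgene of mutant human SOD1 that is expressed throughout the body, and they lose motor neurons and become paralysed. Wild-type status was shared by the young, old and control mice, and the labels name no change in a sirtuin gene in any group.

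Sirtuins are enzymes that remove acetyl and related acyl groups from lysines and split a molecule of NAD in each reaction, so their activity depends on the NAD supply of the cell. Sirt1, Sirt6 and Sirt7 proteins reside mainly in the nucleus, where they act on histones, DNA repair proteins and transcription factors. Sirt2 is mainly cytosolic, deacetylates tubulin and is abundant in oligodendrocytes, the myelin-forming cells of the cord. Sirt3, Sirt4 and Sirt5 are mitochondrial enzymes. Transcript counts do not report enzyme activity.

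The 2 sirtuin genes that differed between SOD1 G93A and control mice, Sirt2 and Sirt3, both lie on chromosome 7 and both begin next to a gene on the other strand. By their GENCODE gene starts, Sirt1 and Sirt6, which were not called, also begin within 1000 bases of a gene on the other strand. These genes, Dnajc12 and Ankrd24, share no exonic bases with them. For Sirt1 this does not hold at the RefSeq start, whose window is chr10:63338986-63339285, whereas the GENCODE gene starts at 63381704. The windows around the starts of Sirt2 and Sirt3 are printed to show this arrangement, since it bears on how their reads can be assigned. RefSeq windows on GRCm38.p6, from 250 bases before a gene's start to 50 after it, were found for 7 of 7 members. Capitals mark bases that also lie in an annotated exon of the neighbour, which is Nfkbib for Sirt2 and Psmd13 for Sirt3.

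Sirt2, chr7:28766502-28766801, plus strand: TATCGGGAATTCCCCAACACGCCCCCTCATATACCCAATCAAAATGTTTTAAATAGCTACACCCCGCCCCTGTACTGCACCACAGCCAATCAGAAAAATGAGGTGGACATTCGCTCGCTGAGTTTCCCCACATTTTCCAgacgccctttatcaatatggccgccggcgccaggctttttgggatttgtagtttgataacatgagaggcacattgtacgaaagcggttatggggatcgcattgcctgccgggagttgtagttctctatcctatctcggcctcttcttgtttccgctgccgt

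Sirt3, chr7:140881820-140882119, minus strand: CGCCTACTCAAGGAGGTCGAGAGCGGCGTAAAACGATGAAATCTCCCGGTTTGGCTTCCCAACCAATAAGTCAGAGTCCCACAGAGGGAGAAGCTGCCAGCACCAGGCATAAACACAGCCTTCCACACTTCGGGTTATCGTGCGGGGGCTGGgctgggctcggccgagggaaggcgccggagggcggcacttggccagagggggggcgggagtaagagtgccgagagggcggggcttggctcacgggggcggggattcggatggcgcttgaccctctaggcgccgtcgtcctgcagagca

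In the Sirt2 window, 139 of 300 bases lie in an exon of Nfkbib, which encodes an inhibitor of the NF-kappa-B transcription factors. In the Sirt3 window, 152 bases lie in an exon of Psmd13, a subunit of the proteasome, and the same 152 bases are exonic in Sirt3 too. A second RefSeq start of Sirt3 has its own window at chr7:140882260-140882559, all of which is exonic in Psmd13. The letters CCAAT, on either strand, occur 2 times in the Sirt2 window and 1 time in the Sirt3 window printed here. Of all 32851 RefSeq windows of this length, 37.4% hold that motif.

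In the GENCODE annotation, the exons of Sirt2 and Nfkbib share 42 bases on opposite strands. The exons of Sirt3 share 342 bases with Psmd13 and 418 with Ric8a, a chaperone of G protein subunits, both on the opposite strand. Sirt7 shares 124 exonic bases with Mafg, a small Maf transcription factor, on the same strand, and Sirt1 shares 65 with an antisense gene that has no row in the table. Whether counting used the strand is not given in the sources used here, so over these bases the reads of a member and its partner cannot be told apart. Sirt4, Sirt5 and Sirt6 had no exonic overlap with another gene.

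Library totals ran from 5078092 to 9358055 counts in young mice, from 5664869 to 9145600 in old mice, from 10693060 to 13219797 in control mice and from 9675610 to 11872431 in SOD1 G93A mice. The mouse Sod1 row held 156, 156 and 168 CPM (counts divided by the scaled library total) in control mice and 296, 298 and 335 in SOD1 G93A mice, in ascending order, and reads of the human transgene may be among them. Schwann cell markers stood apart in old library d149032, with a sum of 58.5 CPM where the median of its group was 3.18, and in SOD1 G93A library d4435, with 109 CPM against at most 3.99 in the other 5 libraries of that experiment. Libraries are named by the tags in the column headers, which carry no replicate numbers. Each p-value below measures the spread between mice within an experiment. The kit differed between the experiments, so no level is compared between an aging and an ALS group.

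Sirt2 had the highest level of the family in every group. On the FPKM scale, which divides by transcript length and so allows genes to be compared, Sirt2 had a median of 143 in young mice (range 123 to 152, n = 8), against 27.9 for Sirt3 (25.5 to 30.4), the next gene. That is a ratio of medians of 5.14. The order below Sirt3 in young mice was Sirt7 with a median of 13.9 FPKM, Sirt4 with 13.4, Sirt6 with 8.11, Sirt5 with 5.66 and Sirt1 with 3.49. Sirt1, the best-known member, thus had the lowest median of the family, and Sirt2 exceeded it by a ratio of 41.0. The ranges over the 8 young mice overlapped between Sirt7 and Sirt4, between Sirt6 and Sirt5 and between Sirt5 and Sirt1, so those neighbours are not separated. In old mice the order was the same, from Sirt2 at 138 FPKM (126 to 152) to Sirt1 at 3.68 (2.44 to 4.33). There, the ranges of Sirt7, Sirt4, Sirt6 and Sirt5 each overlapped with the next of these genes, and Sirt5 lay above Sirt1 in all libraries.

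In control mice the FPKM order was again Sirt2, Sirt3, Sirt7, Sirt4, Sirt6, Sirt5 and Sirt1, with Sirt2 at 138 (131 to 145, n = 3). In SOD1 G93A mice Sirt7 followed Sirt2 with a median of 24.5 FPKM (19.7 to 24.6), and Sirt3 came next with 21.2 (20.98 to 21.7). The ranges of those 2 genes overlapped in SOD1 G93A mice, whereas in control mice Sirt3 (29.5 to 31.8) lay above Sirt7 (16.1 to 19.3) in all libraries. Sirt2 made up 60.6%, 61.6% and 62.1% of the summed FPKM of the 7 genes in the control libraries and 67.6%, 71.3% and 72.2% in the SOD1 G93A libraries. In young mice that share ranged from 59.6% to 68.6% and in old mice from 62.5% to 68.6%. The summed FPKM of the family was 217 to 234 in control mice and 252 to 305 in SOD1 G93A mice. With lengths taken from the union of annotated exons instead, Sirt2 and Sirt3 kept the top places in young, old and control mice, but Sirt3 fell below Sirt7, Sirt4 and Sirt6 in SOD1 G93A mice and Sirt5, not Sirt1, came last in all 4 groups.

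**Figure D1:**
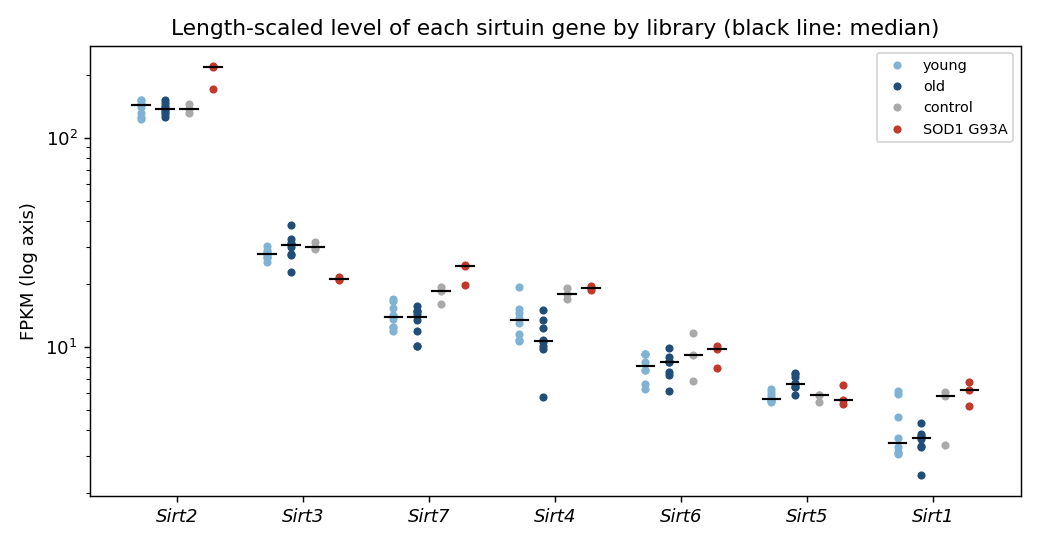
FPKM of each sirtuin gene (log axis) in every library, by group, with black lines at the group medians and genes ordered by the young median. Sirt2 lies between 123 and 220 FPKM in all 22 libraries, above every other member.

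Aging was examined first, to ask whether sirtuin transcripts change between young adulthood and old age. Differences were small: no member passed a log2 fold change of 1 in either direction, a limit that 2.22% of the genes tested passed together with an adjusted p-value under 0.05. At the adjusted p-value alone, 1 of 7 members was called, Sirt5, which was higher in old mice. Over all 13647 genes tested, 26.4% were called, 13.5% as higher and 12.9% as lower. The median log2 fold change of the 7 members was −0.02, beside 0 over all genes.

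Sirt1, which deacetylates p53, PGC-1alpha and other regulators of metabolism and stress, ranged from 11.5 to 19.8 CPM in young mice (median 13.6, n = 8) and from 9.86 to 16.4 CPM in old mice (median 13.2, n = 8). The groups overlapped, with 1 old library below every young library. The log2 fold change was −0.12 with a 95% interval of −0.37 to 0.12 (edgeR, adjusted p = 0.484). That interval holds changes in both directions, so a difference of that size was not detectable with these mice. Seen after the fact, young libraries d149009, d149011, d149012 and d159033 had more Sirt1 (13.8 to 19.8 CPM) than d149017, d149018, d149019 and d149020 (11.5 to 13.3 CPM). The former libraries had less Sirt2, at 211 to 251 CPM against 261 to 271 CPM in the latter. The cause of this split was not tested.

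Among the other nuclear members, Sirt6, a histone deacetylase of telomeres and DNA repair sites, had medians of 13.96 CPM in young and 14.9 CPM in old mice, with overlapping groups. Its log2 fold change was 0.07 (95% interval −0.14 to 0.28). Sirt7, the nucleolar member, had medians of 27.1 and 27.2 CPM and a log2 fold change of −0.07 (−0.23 to 0.09). Sirt2 was the most tightly bounded of the 7 in aging, with medians of 256 CPM in young and 245 CPM in old mice and a log2 fold change of −0.02 (−0.13 to 0.09). The oligodendrocyte markers that Sirt2 is usually seen with did move: 6 of 12 were lower and 1 was higher in old mice, with a median log2 fold change of −0.19. Their summed level overlapped between the groups, at 25751 to 32192 CPM in young and 25328 to 30045 CPM in old mice.

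The mitochondrial members went in different directions. Sirt5, a desuccinylase and demalonylase of mitochondrial enzymes, ranged from 7.69 to 9.11 CPM in young mice (median 8.08) and from 8.61 to 10.8 CPM in old mice (median 9.66). Of the old libraries, 6 of 8 lay above every young library, and 2 lay within the young range. The log2 fold change was 0.23 ± 0.08 (SE), with a 95% interval of 0.06 to 0.41 and an adjusted p of 0.042. That call sat close to the threshold: it was lost with DESeq2 (adjusted p = 0.115), without the filter on low counts (adjusted p = 0.0804), and in 12 of 16 fits with 1 library left out, where the adjusted p rose to at most 0.0843, without old library d149035. The log2 fold change stayed between 0.21 and 0.26 in those 16 fits. The call held when young library d149009 or d149011 or old library d149027 or d149036 was left out, and it was lost without any of the others.

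Sirt3, the main mitochondrial deacetylase, ranged from 33.4 to 41.5 CPM in young mice (median 39.1) and from 34.7 to 46.9 CPM in old mice (median 43.9). Here 5 of 8 old libraries lay above all young libraries. The log2 fold change was 0.16 (95% interval 0.03 to 0.29), with an adjusted p of 0.0676 that missed the threshold. Without old library d149025, which had the lowest Sirt3 of the old group, it was 0.20 with an adjusted p of 0.0169. Ric8a, which shares exonic bases with Sirt3, was also higher in old mice, by 0.16 (0.04 to 0.28, adjusted p = 0.0429). The Ric8a call held in 4 of 16 fits with 1 library left out and in 3 of 6 other settings. Psmd13 had a log2 fold change of 0.03 (−0.10 to 0.16). The part of shared reads in the Sirt3 difference was not tested. Sirt4, a lipoamidase and ADP-ribosyltransferase of mitochondria, had medians of 11.3 CPM in young and 9.67 CPM in old mice. Its log2 fold change was −0.24 (−0.49 to 0.02, adjusted p = 0.161), with 3 old libraries below all young libraries.

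In bulk tissue, fewer cells of a type and less RNA per cell cannot be told apart, and cell type markers moved with age. Of 11 microglia and macrophage markers, 10 were higher in old mice, and their summed level rose from 265 to 288 CPM in young mice to 509 to 1021 CPM in old mice. Of 7 astrocyte markers 4 were higher and 1 was lower, and of 11 neuron markers 1 was higher and 5 were lower. Of 6 oligodendrocyte precursor markers 2 were lower, with Gpr17 at −0.98 on the log2 scale (adjusted p = 1.46e-08), and their sums did not overlap, at 199 to 229 CPM in young and 159 to 186 CPM in old mice. The part of these shifts in the Sirt5 difference was not tested.

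The ALS comparison asked whether the family changes in mice with motor neuron disease. Sirt2 was higher and Sirt3 was lower in SOD1 G93A than in control mice, and the other 5 members were not called. Thus 2 of 7 members had an adjusted p-value under 0.05, where 33.9% of the 14386 genes tested did so, 18.4% as higher and 15.5% as lower. Past a log2 fold change of 1 there was no member, beside 9.7% of all genes. The median log2 fold change of the members was 0.14, and that of all genes was 0.

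Sirt2 was at 244, 226 and 256 CPM in control libraries d4438, d4441 and d4444. In SOD1 G93A libraries d4435, d4437 and d4443 it was at 368, 290.2 and 363 CPM. Every SOD1 G93A library was above every control library, and d4437 was the lowest of the 3. The log2 fold change was 0.49 ± 0.11 (SE), 1.41-fold, with a 95% interval of 0.24 to 0.75 and an adjusted p of 0.0112. In all 6 other settings with all the libraries the call held, with an adjusted p of at most 0.0117. It was lost in 2 of 6 fits with 1 library left out, at 0.44 (adjusted p = 0.0592) without control library d4441 and at 0.45 (adjusted p = 0.0557) without SOD1 G93A library d4443.

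Sirt3 was at 40.0, 42.8 and 43.8 CPM in the same 3 control libraries and at 33.0, 30.5 and 31.0 CPM in the 3 SOD1 G93A libraries. All SOD1 G93A values were below all control values, with little spread within either group. The log2 fold change was −0.42 ± 0.09 (SE), a fold of 0.747, with a 95% interval of −0.62 to −0.22 and an adjusted p of 0.00858. This call held in all 6 other settings and in all 6 fits with 1 library left out, with an adjusted p of at most 0.0475.

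**Figure D2:**
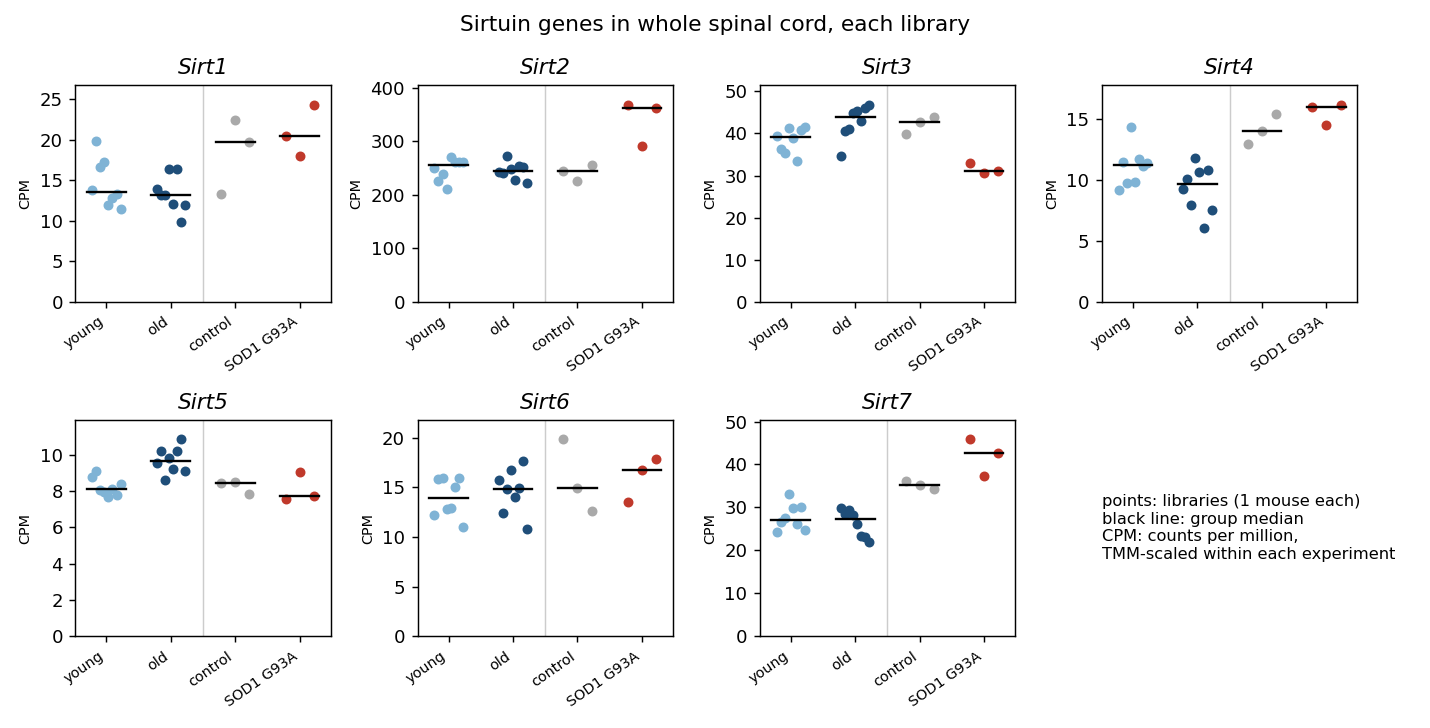
CPM of each of the 7 sirtuin genes in every library, one panel per gene, with points for mice and black lines at group medians; the vertical line parts the aging from the ALS experiment, which were scaled separately. The 3 SOD1 G93A libraries lie above all controls for Sirt2 (290.2 to 368 against 226 to 256 CPM) and below all controls for Sirt3 (30.5 to 33.0 against 40.0 to 43.8 CPM).

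In the ALS comparison, the neighbours that share exonic bases with Sirt2 and Sirt3 did not change in the same direction beyond their spread. Nfkbib, beside Sirt2, was at 23.2, 20.3 and 19.4 CPM in control mice and at 22.7, 16.8 and 23.0 CPM in SOD1 G93A mice, with a log2 fold change of 0.00 (95% interval −0.34 to 0.33). Psmd13, at the start of Sirt3, was at 68.3, 58.3 and 60.5 CPM in control mice and at 56.7, 65.9 and 62.2 CPM in SOD1 G93A mice, a log2 fold change of −0.02 (−0.24 to 0.20). Both pairs of groups overlapped. Ric8a, at the other end of Sirt3, was at 46.6, 42.0 and 39.6 CPM in control mice and at 53.4, 51.5 and 55.2 CPM in SOD1 G93A mice, which is 0.32 higher on the log2 scale (0.11 to 0.53, adjusted p = 0.0262) and opposite to Sirt3. The Ric8a call was lost in 4 of 6 fits with 1 library left out, without d4441 (adjusted p = 0.0972), d4444 (0.0982), d4435 (0.0552) or d4443 (0.0978). Mafg, which overlaps Sirt7, had a log2 fold change of 0.04 (−0.22 to 0.31).

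Sirt7 was at 36.3, 35.2 and 34.3 CPM in control libraries d4438, d4441 and d4444 and at 45.8, 37.3 and 42.7 CPM in SOD1 G93A libraries d4435, d4437 and d4443. The groups did not overlap, but the log2 fold change of 0.25 (95% interval 0.02 to 0.48) had an adjusted p of 0.0856. It passed the threshold without SOD1 G93A library d4437 (0.33, adjusted p = 0.015), and with library totals in place of scaling factors (0.29, adjusted p = 0.0474). Sirt1 was at 13.3, 22.4 and 19.7 CPM in control mice and at 20.5, 18.0 and 24.4 CPM in SOD1 G93A mice. The groups overlapped, and the log2 fold change of 0.18 (−0.27 to 0.62, adjusted p = 0.512) became −0.01 without control library d4438, which had the lowest value of the 6.

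The ranges of the remaining members overlapped between the groups. For Sirt4, 2 of 3 SOD1 G93A libraries lay above all controls, and for Sirt5, 1 lay above and 2 lay below all controls. Sirt4 had medians of 14.1 CPM in control and 16.01 CPM in SOD1 G93A mice and a log2 fold change of 0.14 (−0.16 to 0.43). Sirt5, which was called in aging, had medians of 8.45 and 7.70 CPM and a log2 fold change of −0.03 (−0.39 to 0.33). Sirt6 had medians of 14.9 and 16.7 CPM and a log2 fold change of 0.03 (−0.40 to 0.46).

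**Figure D3:**
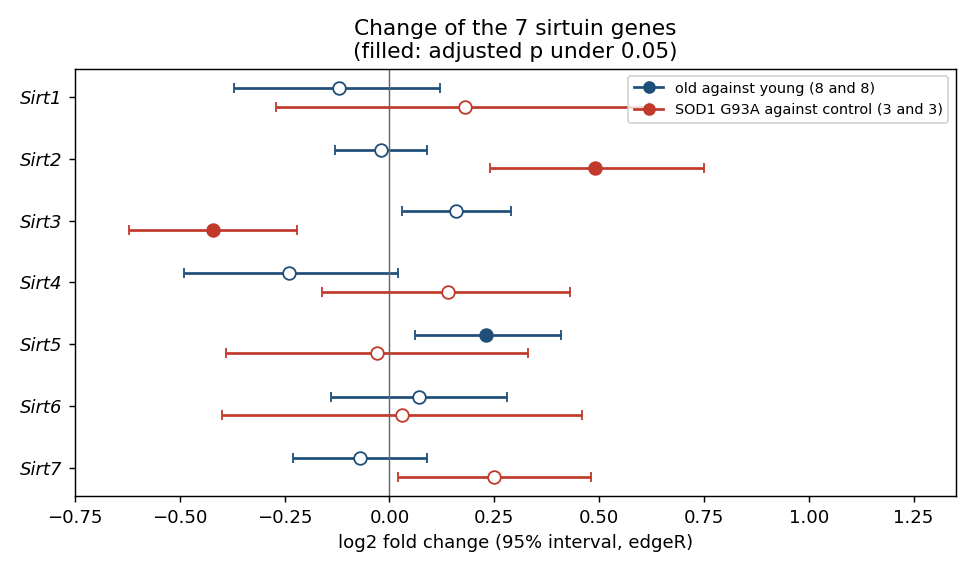
Log2 fold change of each sirtuin gene with its 95% interval, old against young in blue and SOD1 G93A against control in red, filled where the adjusted p-value is under 0.05. Sirt5 is filled in aging (0.23), and Sirt2 (0.49) and Sirt3 (−0.42) are filled in SOD1 G93A mice.

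Cell type markers moved with genotype in the same libraries. Oligodendrocyte markers, with which Sirt2 is usually found, were called in 2 of 12 cases, 1 higher and 1 lower. Their summed level was 28340 to 32189 CPM in control mice and 27152 to 29773 CPM in SOD1 G93A mice, with a median log2 fold change of −0.21. Oligodendrocyte precursor markers summed to 201 to 221 CPM in control and 246 to 311 CPM in SOD1 G93A mice. Microglia and macrophage markers were higher in 9 of 11 cases, with sums of 276 to 336 CPM in control and 1476 to 3235 CPM in SOD1 G93A mice. Astrocyte markers were higher in 5 of 7 cases, with sums of 6034 to 6636 and 11581 to 18060 CPM. Neuron markers were lower in 9 of 11 cases and motor neuron markers in 5 of 7, and the neuron sums were 9312 to 9863 CPM in control and 3698 to 6221 CPM in SOD1 G93A mice. SOD1 G93A library d4437 had the lowest Sirt2, the lowest microglial and astrocyte sums and the highest neuron sum of its group. The same library also had the lowest Sirt3, at 30.5 CPM against 33.0 CPM in d4435 and 31.0 CPM in d4443, and so lay farthest from the controls for that gene. The part of these shifts in the Sirt2 and Sirt3 differences was not tested.

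Sirt2 and Sirt3 also changed differently in the 2 experiments. In an edgeR fit of all 22 libraries, the log2 fold change in SOD1 G93A mice exceeded that in aging by 0.48 for Sirt2 (95% interval 0.25 to 0.71, adjusted p = 0.00221). For Sirt3 the difference was −0.61 (−0.84 to −0.37, adjusted p = 0.000401). Thus Sirt3, with a log2 fold change of 0.16 with age and −0.42 with the transgene, had the largest difference of the 7 members. These 2 of 7 members were called where 25.8% of 14502 genes were. Among the others, Sirt7 had a difference of 0.29 (0.01 to 0.57, adjusted p = 0.115), Sirt4 of 0.35 (−0.07 to 0.76), Sirt1 of 0.28 (−0.20 to 0.75), Sirt5 of −0.29 (−0.59 to 0.01) and Sirt6 of −0.07 (−0.48 to 0.35). Disease, sex, age and library kit all differed between the experiments and cannot be told apart in this difference.

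The genes around the sirtuins were described through 6 lists with 117 genes, covering NAD supply, other NAD-consuming enzymes, regulators of Sirt1, substrates and the zinc-dependent deacetylases. In aging 31 of the 105 genes tested were called, 29.5%, close to the 26.4% of all genes. In the ALS comparison 39 of 106 were called, 36.8%, close to the 33.9% of all genes. These shares pool the 6 lists, which differed among themselves: of 18 NAD-consuming genes 7 were called higher and 4 lower in aging, whereas 1 of 16 regulators of Sirt1 was called there. With limma on the log2(FPKM + 1) values, several calls named below were lost, namely those of Nmnat3, Nnt, Kat2b, Srebf1, Ogg1, Hdac11, Cd38 and Tnks2 in aging and those of Nampt, Nadk, Nmnat2, Parp6, Dyrk3, Prkaa1, Hdac2 and Hdac11 in the ALS comparison. With library totals alone in SOD1 G93A mice, 25 were higher and 8 were lower, against 24 and 15 with scaling factors.

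Of 13 genes of NAD synthesis and transport tested in aging, 3 were higher and none was lower. Naprt, which starts NAD synthesis from nicotinic acid, ranged from 2.19 to 6.22 CPM in young mice and from 4.16 to 10.8 CPM in old mice, a log2 fold change of 0.95 ± 0.19 (SE, adjusted p = 0.00062). With the transgene, Naprt was 1.38 ± 0.20 higher (adjusted p = 0.00176), with 14.1 to 23.0 CPM against 6.06 to 7.68 CPM in control mice. Nmnat3, the mitochondrial enzyme that completes NAD, was higher by 0.52 in old mice (adjusted p = 0.0139) and by 1.05 in SOD1 G93A mice (adjusted p = 0.0181). Its levels were low, at 2.02 to 6.45 CPM over the ALS experiment, and the second call was lost without d4441 (adjusted p = 0.0668), d4444 (0.0634) or d4443 (0.0726). Nnt, the mitochondrial transhydrogenase, was higher by 0.32 in old mice (adjusted p = 0.0469), and by 0.17 (adjusted p = 0.104) without old library d149028, which was at 35.1 CPM where the old median was 19.4. The Nnt call was also lost without any 1 of the 8 young libraries or old library d149032 or d149036.

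Of 14 such genes tested in SOD1 G93A mice, 4 were higher and 1 was lower. Nampt, the rate-limiting enzyme of NAD salvage from nicotinamide, was at 58.4 to 63.1 CPM in control and 70.3 to 78.1 CPM in SOD1 G93A mice, 0.29 higher on the log2 scale (adjusted p = 0.026). Nadk, which phosphorylates NAD to NADP, was 0.48 higher (adjusted p = 0.023). Both calls held without d4437 and were lost without any of the other 5 libraries, with adjusted p-values up to 0.108 for Nampt and 0.0906 for Nadk. In old mice Nampt had a log2 fold change of −0.03 (95% interval −0.14 to 0.08) and Nadk of 0.09 (−0.02 to 0.21).

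**Figure D4:**
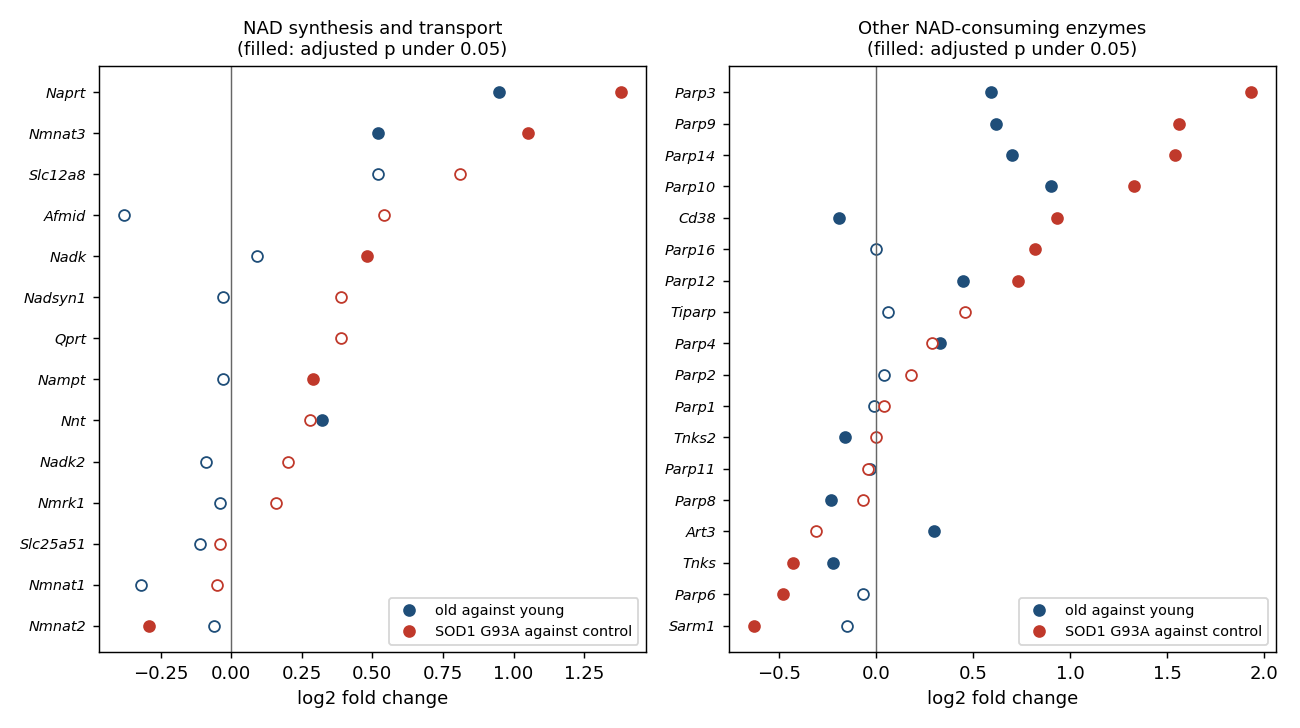
Log2 fold changes of genes of NAD synthesis and transport (left) and of NAD-consuming enzymes other than sirtuins (right), old against young in blue and SOD1 G93A against control in red, filled where the adjusted p-value is under 0.05. Naprt and Nmnat3 are filled in both comparisons on the left, and Parp3, Parp9, Parp10, Parp12 and Parp14 on the right.

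The 18 NAD-consuming genes had 7 called higher and 3 lower in the ALS comparison, next to the counts for aging above. Most genes on this list are PARP family members, ADP-ribosyltransferases of which several are induced by interferon. The genes called higher, like those called lower, were mostly of this family too. In aging, Parp10 (0.90), Parp14 (0.70), Parp3 (0.59) and Parp12 (0.45) had the smallest adjusted p-values, at most 0.000663. In the ALS comparison, Parp3 (1.93), Parp9 (1.56), Parp14 (1.54) and Parp10 (1.33) led, with adjusted p-values of at most 0.00252. Parp3, a DNA repair enzyme, was at 10.7 to 11.2 CPM in control and 29.6 to 51.0 CPM in SOD1 G93A mice, and at 7.63 to 11.7 CPM in young and 12.1 to 19.1 CPM in old mice. Neither comparison overlapped. Parp1, the most studied PARP, was not called, with log2 fold changes of −0.01 in aging (95% interval −0.11 to 0.10) and 0.04 in the ALS comparison (−0.17 to 0.25).

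The lower members of these groups were named after their values were seen, as was Parp1. Sarm1, the NAD hydrolase that drives axon degeneration, was at 28.5 to 33.2 CPM in control and 18.8 to 20.1 CPM in SOD1 G93A mice, lower by 0.63 on the log2 scale (adjusted p = 0.00332), and it was called in all 6 fits with 1 library left out. Nmnat2, the axonal enzyme that completes NAD and holds Sarm1 in check, was at 161 to 169 CPM in control and 128 to 143 CPM in SOD1 G93A mice, lower by 0.29 (adjusted p = 0.0277). The Nmnat2 call held without d4437 and was lost without any of the other 5 libraries, with an adjusted p up to 0.12. Both genes are expressed by neurons, whose marker sum was lower in the same libraries. The part of that shift in the Sarm1 and Nmnat2 differences was not tested. Tnks, tankyrase, was lower by 0.22 in aging and by 0.43 in the ALS comparison, and the second call was lost without d4441 (adjusted p = 0.0709) or d4443 (0.0785). Parp6 was lower by 0.48 in the ALS comparison, and its call was lost without d4441 (0.0562) or d4443 (0.0559). In aging Tnks2 was lower by 0.16, Cd38, an NAD hydrolase, by 0.19 and Parp8 by 0.23, while Cd38 was higher by 0.93 in the ALS comparison (adjusted p = 0.00833), and the Parp8 call held in 8 of 16 fits with 1 library left out.

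Direct regulators of Sirt1 showed few calls. In aging 1 of 16 was lower, Setd7, a lysine methyltransferase that methylates Sirt1, at 236 to 268 CPM in young and 177 to 238 CPM in old mice, a log2 fold change of −0.34 (adjusted p = 1.86e-05). In SOD1 G93A mice 2 of 16 were lower: Dyrk3, a kinase, by 0.78 (adjusted p = 0.0219) and Prkaa1, a catalytic subunit of the energy sensor AMPK, by 0.32 (adjusted p = 0.0358). The Prkaa1 call held without d4437 and was lost without any of the other 5 libraries. The Dyrk3 call was lost without d4438 (adjusted p = 0.0708), d4441 (0.0713), d4435 (0.0815) or d4443 (0.0572).

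Of 27 transcription factor and chromatin substrates, aging gave 6 higher and 3 lower, and the ALS comparison gave 8 higher and 2 lower. Irf8, a factor of microglia and macrophages, differed most, with log2 fold changes of 1.86 in aging (adjusted p = 2.71e-08) and 3.38 in the ALS comparison (adjusted p = 0.000124). Stat3 was higher by 0.26 and by 0.93 in the same order, and Trp53, which encodes p53, by 0.35 and by 0.69. Kat2b, an acetyltransferase, was lower in old mice by 0.25 (adjusted p = 0.00106). Hif1a (0.70) and Srebf1 (0.77), regulators of the hypoxia response and of lipid synthesis, were higher in SOD1 G93A mice, and in aging Srebf1 was higher by 0.29 (adjusted p = 0.00224).

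Genes for mitochondrial substrates of Sirt3, Sirt4 and Sirt5 were split, with 4 of 20 higher and 2 lower in aging, and 4 higher and 5 lower in the ALS comparison. Idh2, the NADP-dependent isocitrate dehydrogenase that Sirt3 activates, was at 26.4 to 28.6 CPM in young and 31.3 to 40.1 CPM in old mice (log2 fold change 0.38, adjusted p = 3.52e-05). It was at 28.1 to 29.7 CPM in control and 44.5 to 72.9 CPM in SOD1 G93A mice (1.05, adjusted p = 0.00236). Shmt2, of mitochondrial folate metabolism, was higher by 0.26 and by 0.61 in the same order. Opa1, of inner membrane fusion, was lower by 0.20 with age and by 0.50 with the transgene, the second call being lost without d4441 (adjusted p = 0.0738) or d4443 (0.0783). Ogg1, a DNA glycosylase, was higher by 0.48 with age. Acadvl, of fatty acid oxidation, was higher by 0.52 in SOD1 G93A mice. Sod2, the mitochondrial superoxide dismutase that Sirt3 deacetylates, was at 152 to 177 CPM in control and 92.5 to 131 CPM in SOD1 G93A mice, lower by 0.61 (adjusted p = 0.0109), and the call was lost without d4441 (adjusted p = 0.0503) or d4443 (0.0562).

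The 11 zinc-dependent histone deacetylases, the enzymes of like reaction that use no NAD, had 1 member called in aging, and 1 higher and 2 lower in the ALS comparison. Hdac11, which is abundant in oligodendrocytes, was higher by 0.12 with age (adjusted p = 0.0197, and 0.0533 with library totals alone) and lower by 0.40 in SOD1 G93A mice (adjusted p = 0.0272). Hdac1 was higher by 0.42 and Hdac2 lower by 0.29 in SOD1 G93A mice. The Hdac11 and Hdac2 calls in SOD1 G93A mice held without d4437 and were lost without any of the other 5 libraries, and that of Hdac1 was lost without d4441, d4444 or d4443.

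Likeness in expression was described over the 16 aging libraries, as Pearson's r of log2 CPM with each of 13607 protein-coding genes, which share libraries, depth and the age difference. Sirt3 was most like Snf8 (r = 0.92, Spearman's rho 0.94), a subunit of an endosomal sorting complex, and Rchy1 (0.87, 0.82), a ubiquitin ligase. Sirt5 was most like Cxcl14 (0.90, 0.89), a chemokine, and Smad3 (0.89, 0.87), a mediator of TGF-beta signalling. For Sirt7 these were Slc7a3 (0.86, 0.89) and Gm49396 (0.81, 0.76), and for Sirt2 Zcchc8 (0.82, 0.83) and Pla2g6 (0.81, 0.72). Sirt4 had Col26a1 (0.82, 0.62) and Purg (0.81, 0.63), Sirt6 had B3galt4 (0.80, 0.79) and Grk4 (0.80, 0.66), and Sirt1 had Gm38394 (0.79, 0.79) and Klhdc7a (0.79, 0.79). Without the 2 libraries farthest from the member's median, r lay between 0.60 and 0.88. Between members, r ranged from −0.47 for Sirt5 and Sirt7 to 0.49 for Sirt4 and Sirt7.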

How the data were processed

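RNA-seq of whole spinal cord from 22 mice was analysed. Per the paper's methods and the labels, the authors aligned the reads with STAR, summarized them with RSEM on mm10 and used SAMtools 1.3. The authors deposited a table of RSEM expected counts without normalization between libraries, and a second table of log2 values, log2(FPKM + 1), from which FPKM was recovered by reversing that transform. The expected counts were already whole numbers in the deposited table. Symbols and positions are from GENCODE M21 (GRCm38), which matched 21842 of the 21995 identifiers. Columns name a group and a library but no replicate number. No 2 libraries of a group were identical or differed by sampling noise alone (chi-square per degree of freedom at least 2.36).

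Within each comparison, genes were kept by filterByExpr (minimum count 10, minimum total 15), scaled by TMM, tested with the quasi-likelihood test of edgeR 4.0.16 and adjusted by the Benjamini-Hochberg method across every gene kept. A gene was called at an adjusted p-value under 0.05. Overlap of the groups' ranges was described gene by gene and was no criterion for a call. The share of all genes whose groups did not overlap is not given. Intervals at 95% come from the same fit. The difference between comparisons was a contrast in one edgeR fit of all libraries. Sex was not a covariate. The alternatives were DESeq2 1.42.0, RLE size factors, library totals alone, no filter, one fit of all libraries, limma 3.58.1 on log2(FPKM + 1), exon-union lengths and each library left out. Leaving libraries out of the fit of all 22, and every alternative for the gene lists, were chosen after seeing the data. The procedure was tested on simulated data. R 4.3.3, Python 3.11.15, pandas 2.3.3 and matplotlib 3.10.9 were used. A library's floor of 3 counts was 0.231 to 0.582 CPM, which covers counting error only.

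Members and gene lists were chosen with earlier results of these data known. Named genes are all 7 sirtuins, per list and comparison at most 4 called genes with the smallest adjusted p-values, neighbours that share exonic bases, and per member the 2 most alike genes. List members called lower beyond these, and Parp1, were added after their values were seen.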

Additional observations from a re-analysis of the deposited data

Results flagged for a closer look

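The change of Sirt2 and that of Sirt3 differed between the 2 experiments by the contrast in the fit of all 22 libraries, by 0.48 for Sirt2 and by −0.61 for Sirt3 on the log2 scale (SOD1 G93A against control, minus old against young). Both calls held in each of the 22 fits with 1 library left out. Without SOD1 G93A library d4437, Sirt7 was called as well.

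In a check for single libraries far from the rest of a group of 8, no sirtuin gene had such a library. Of 36 groups of values tested, 3 did, and chance gives about 1 in 20. The gap to the nearest library, as a share of the group's range, was 0.832 for the summed Schwann cell markers in young library d149012 (11.7 CPM), 0.945 for the same sum in old library d149032 (58.5 CPM) and 0.619 for the summed blood cell markers in old library d149035 (1092 CPM). Without d149032 the Sirt5 log2 fold change in aging was 0.24 with an adjusted p of 0.0517, and without d149035 it was 0.21 with an adjusted p of 0.0843. Without d149012 it was 0.22 with an adjusted p of 0.07.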

How the results depend on the processing

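Over the single-gene values of the 7 members in both comparisons and in their difference, 375 alternative values kept the direction and the side of the threshold, 16 lost the threshold, 4 gained it and 11 turned direction. In aging, 1 member was called, and 0 were called with DESeq2 or with edgeR without the filter on low counts, where 2 members had an unadjusted p under 0.05 in each. With 1 library left out, 0 to 1 were called. In SOD1 G93A mice 2 members were called, and 1 to 3 with 1 library left out. In the difference, 2 to 3 were called in those fits. Direction turned for uncalled values: in SOD1 G93A mice Sirt5 (−0.03) was at 0.01 with library totals alone and 0.02 with limma on log2(FPKM + 1), and with 1 library left out Sirt5 lay between −0.11 and 0.03, Sirt1 between −0.01 and 0.34 and Sirt6 between −0.11 and 0.22. The difference for Sirt6 (−0.07) was 0.01 with limma and lay between −0.21 and 0.12 with 1 library left out. The cause was not tested.

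With exon-union lengths the order by level changed in all 4 groups, with 3, 2, 4 and 4 of the 6 neighbouring pairs apart in young, old, control and SOD1 G93A mice. List members called in aging numbered 31, 20 with limma and 28 to 38 with 1 library left out. In SOD1 G93A mice they numbered 39, and 17 to 55, with the fewest without d4443 and the most without d4437, beside 20 without d4441 and 25 without d4444 or d4435. No paired analysis was possible because the columns carry no replicate numbers, so any matching of mice between groups could not be followed. With 3 mice a group, a gene that was not called may still differ by any amount within its interval.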
